A study of Danio rerio with 2 samples.

Results

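The genes described here are 10 mural and mesenchymal genes of the zebrafish (Danio rerio): the receptor genes pdgfra and pdgfrb, and the transcription factor genes twist1a, twist1b, foxc1a, foxc1b, foxf2a, tbx18 and the 2 prrx1 genes. They were chosen by gene name, as genes known from mural cells, fibroblasts or head mesenchyme. The choice was made with earlier results of these data known. All 10 were found among the 21699 genes listed in the deposited tables. The study measured RNA in kdrl:GFP+ cells sorted from embryos at 44 hours post fertilization (hpf). Both libraries came from crosses of fish carrying the transgene Tg(kdrl:GFP) and heterozygous for tsu3994, an allele of gbf1. The sibling library was made from morphologically normal siblings and the mutant library from morphologically mutant embryos, with 1 library each. The comparison asks how the sorted cells of mutants differ from those of siblings. Which genotypes the normal siblings had, and how many embryos were pooled, is not stated in the sources used here; the promoter of kdrl, a receptor for vascular endothelial growth factor, sets which cells carry GFP.

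Mural cells, that is pericytes and smooth muscle cells, wrap blood vessels and are recruited in part by platelet-derived growth factor B (PDGF-B) that endothelium secretes and that the receptor PDGFR-beta on mural cells binds. In the head, many mural cells and fibroblasts descend from neural crest and mesoderm, and Twist, Foxc, Foxf and Prrx transcription factors mark or pattern that mesenchyme. Some of these genes, among them the Foxc genes, are also active in endothelium.

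The libraries held 5657525 and 6169373 expected counts, sibling first. Neither was pure endothelium by its markers. kdrl was at 6.38 FPKM (fragments per kilobase of gene length, scaled within each library) in the sibling library, against 21.3 FPKM in the mutant. The VE-cadherin gene cdh5 was at 1.96 and 9.03 FPKM. The 17 erythroid marker genes found summed to 370948 and 282387 FPKM. gbf1 itself, which encodes an ARF exchange factor of the Golgi, was at 3.44 and 6.13 FPKM, and the labels do not give the lesion, so this level does not check the genotype. With 1 library per group there is no test between conditions, and every difference below compares these 2 libraries.

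All 10 genes were listed in both libraries, and 9 of them were at least 2-fold higher in the mutant library on the scale of log2(FPKM + 1). Genes were counted as tested when the mean of their 2 FPKM values reached 1. Of these 14855 genes, 7.22% were at least 2-fold higher, and a further 1.29% were lower by as much. Among the 9380 genes whose mean FPKM lay within the range of the 9 genes, 2.24 to 24.3, 8.03% were at least 2-fold higher. With no minimum at all the share was 5.55% of the 21699 genes. Since the 10 genes were chosen with earlier results of these data known, these shares describe and do not test. Of the 7 genes with at least 5 FPKM and 20 counts in 1 library, 5 were under 5 FPKM in the sibling library and qualified through the mutant library alone, so a count over them is not read. tbx18, the remaining gene, had a mean of 0.32 FPKM and did not reach the minimum of 1. pdgfrb lay under 1 FPKM in the sibling library and reached that minimum through the mutant library. In bulk RNA, more cells of a type and more RNA per cell cannot be told apart.

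**Figure D1:**
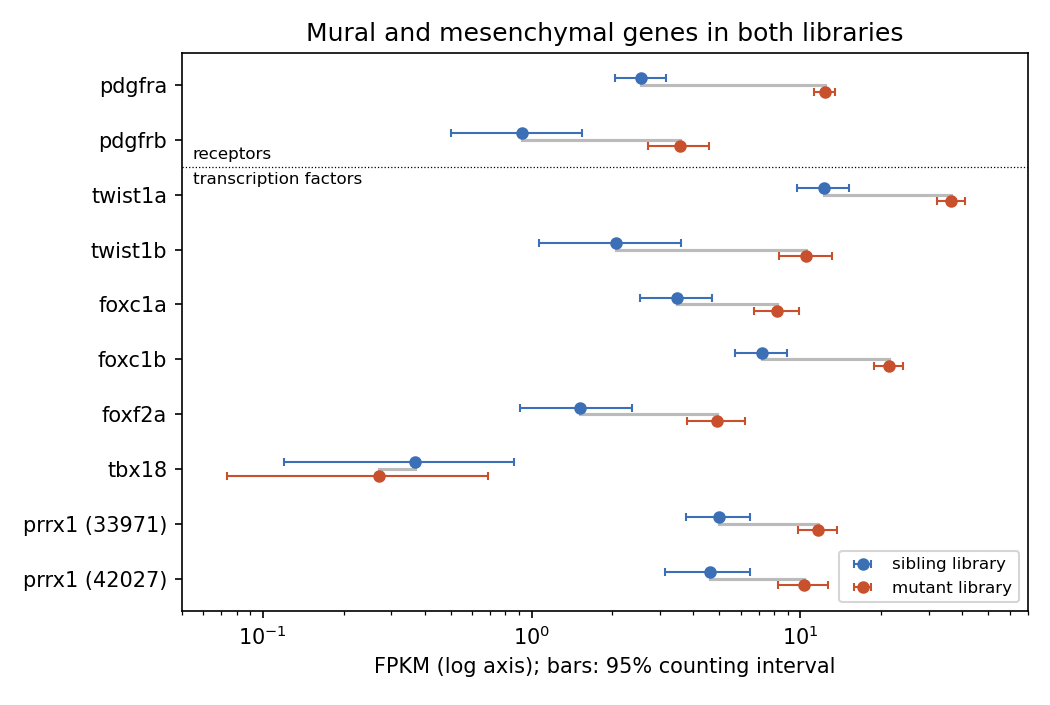
FPKM of the 10 genes (log axis) in the sibling library (blue) and the mutant library (red), with 95% Poisson counting intervals as bars; the 2 prrx1 genes are told apart by the last 5 digits of their Ensembl IDs. The mutant value lies to the right of the sibling value for every gene except tbx18, whose intervals overlap widely.

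The levels were low to moderate. They ran from 0.37 FPKM for tbx18 to 12.2 FPKM for twist1a in the sibling library, and from 0.27 to 36.4 FPKM for the same genes in the mutant library. twist1a was followed by foxc1b in both libraries, and foxf2a, pdgfrb and tbx18 were the lowest in both, in that order. In the sibling library the counting intervals of neighbours in this order overlapped from foxc1b down to tbx18. In the mutant library twist1a, foxc1b and tbx18 stood clear of their neighbours, while pdgfra, twist1b, foxc1a and the prrx1 genes formed a run of overlapping intervals between 8.19 and 12.3 FPKM. pdgfra was 6th by level in the sibling library and 3rd in the mutant library, where by value the prrx1 genes and foxc1a no longer stood above it.

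Among the receptors, pdgfra encodes the alpha receptor for PDGF, a tyrosine kinase that marks fibroblasts and much of the cranial mesenchyme (ENSDARG00000070494). It was at 2.56 FPKM in the sibling library, from 87 expected counts, and at 12.3 FPKM in the mutant library, from 462 counts. The log2 fold on FPKM + 1 was 1.90. The ratio of counts per library total was 4.87, with an exact 95% counting interval of 3.87 to 6.20 that covers counting error only. pdgfra lay above 49.5% of the genes listed in the sibling table and above 78.6% of those in the mutant table.

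pdgfrb encodes the beta receptor for PDGF, through which mural cells answer PDGF-B (ENSDARG00000100897). It was at 0.92 FPKM in the sibling library, from 14 counts, and at 3.56 FPKM in the mutant library, from 59 counts. Its log2 fold was 1.25 and its count ratio 3.86 (2.13 to 7.50). Both receptors were thus higher in the mutant library, and their counting intervals overlapped each other. pdgfra made up 86.1% of the counts of both receptor genes in the sibling library (exact binomial interval 77.8 to 92.2) and 88.7% in the mutant library (85.6 to 91.3), so their balance differed by less than the counting error. Per length, the level of pdgfra was 2.78 times that of pdgfrb in the sibling library and 3.46 times in the mutant library.

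The Twist genes encode basic helix-loop-helix factors of the head mesenchyme and of cranial neural crest. twist1a (ENSDARG00000030402) had the highest level of the 10 genes, at 12.2 FPKM from 80 counts in the sibling library and 36.4 FPKM from 259 counts in the mutant library. Its log2 fold was 1.50 and its count ratio 2.97 (2.30 to 3.86). The paralog twist1b (ENSDARG00000076010) was at 2.06 FPKM from 12 counts and at 10.5 FPKM from 79 counts. It had the largest fold of the 10 genes, a log2 fold of 1.91 and a count ratio of 6.04 (3.27 to 12.2), next to pdgfra at 1.90 on the log2 scale. Its listed length was 18.4% longer in the mutant table, so its plain FPKM ratio, 5.09, was smaller than its count ratio. twist1b held 13.0% of the counts of both Twist genes in the sibling library (6.93 to 21.7) and 23.4% in the mutant library (19.0 to 28.3), intervals that overlap.

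The Foxc and Foxf2 genes encode forkhead factors. The Foxc factors act in mesoderm, head mesenchyme and vessels, and Foxf2 is known in zebrafish from the pericytes of the brain. foxc1a (ENSDARG00000091481) was at 3.49 FPKM from 44 counts in the sibling library and 8.19 FPKM from 112 counts in the mutant library, with a log2 fold of 1.03 and a count ratio of 2.33 (1.63 to 3.39). The name table lists this gene as FOXC1 beside a separate foxc1b, and it is called foxc1a here on that ground. foxc1b (ENSDARG00000055398) was at 7.17 FPKM from 81 counts and 21.4 FPKM from 262 counts, a log2 fold of 1.45 and a count ratio of 2.97 (2.30 to 3.85). foxc1b was thus the more abundant paralog in both libraries, with 64.8% of the counts of both in the sibling library (55.8 to 73.1) and 70.1% in the mutant (65.1 to 74.7). foxf2a (ENSDARG00000017195) was at 1.51 FPKM from 19 counts and 4.90 FPKM from 67 counts, a log2 fold of 1.23 and a count ratio of 3.23 (1.92 to 5.70).

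The foxc1 and foxf2 genes neighbour foxq1 genes in the genome, by the order of protein-coding genes in the RefSeq assembly GRCz12tu, which is not the build of the deposited values. There foxc1a, foxf2a and foxq1a lie in that order with 1 gene, ftr93, between foxc1a and foxf2a. foxc1b, foxf2b and foxq1b lie side by side. foxf2b, the paralog of foxf2a, was at 0.44 and 1.43 FPKM, from 5.15 and 18.2 expected counts, with a count ratio of 3.30 (1.18 to 11.4). It held 20.8% of the counts of both Foxf2 genes in the sibling library and 21.2% in the mutant library. The foxq1 genes stood the other way. The gene listed as foxq1 beside a separate foxq1b (ENSDARG00000030896) was at 38.4 and 25.4 FPKM, a count ratio of 0.66 (0.55 to 0.79), and foxq1b was at 3.69 and 2.32 FPKM, with an interval of 0.34 to 1.12 that holds 1. Forkhead genes that neighbour each other were therefore not all on the same side of 1.

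The prrx1 genes encode paired-related homeobox factors of fin bud and craniofacial mesenchyme. The name table gives both the symbol PRRX1, so which is prrx1a and which prrx1b is not settled here and they are named by ID. ENSDARG00000033971 was at 4.99 FPKM from 55 counts in the sibling library and 11.6 FPKM from 139 counts in the mutant library, with a log2 fold of 1.07 and a count ratio of 2.32 (1.68 to 3.23). ENSDARG00000042027 was at 4.60 FPKM from 32 counts and 10.3 FPKM from 91 counts, a log2 fold of 1.01 and a count ratio of 2.61 (1.73 to 4.03). These were close to each other in level and in fold. The second held 36.8% of the counts of both genes in the sibling library (26.7 to 47.8) and 39.6% in the mutant library (33.2 to 46.2), and its listed length was 16.4% longer in the mutant table.

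tbx18 encodes a T-box factor known in the mouse from mural cells and the epicardium (ENSDARG00000036930). It was at 0.37 FPKM from 5 counts in the sibling library and 0.27 FPKM from 4 counts in the mutant library. Its count ratio of 0.73 had an interval of 0.15 to 3.41, so a difference in either direction within that interval was not detectable at this depth. Its interval overlapped those of 8 of the other 9 genes, all but pdgfra.

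**Figure D2:**
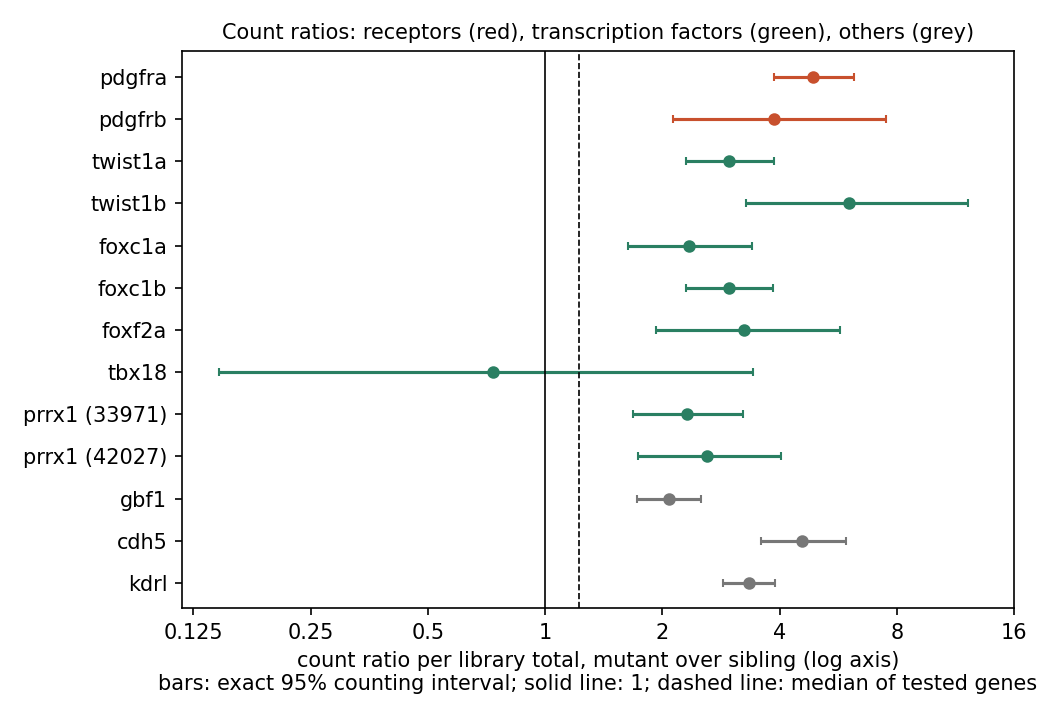
Ratio of expected counts per library total, mutant over sibling (log axis), with exact 95% counting intervals, for the 2 receptors (red), the 8 transcription factors (green) and gbf1, cdh5 and kdrl (grey). Of the 10 genes, 9 have intervals above 1 and above the median of tested genes at 1.22 (dashed line), and the interval of tbx18 spans both.

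The receptors were compared with the transcription factors. The median log2 fold was 1.58 for the 2 receptors and 1.23 for the 7 transcription factors with a mean FPKM of at least 1, beside 0.25 for all tested genes. Summed over genes, the count ratio was 4.73 for the receptors (3.82 to 5.91) and 2.83 for the 8 transcription factors (2.50 to 3.22). Receptors held 23.5% of the counts of the 10 genes in the sibling library (19.6 to 27.8) and 34.0% in the mutant library (31.6 to 36.4), or 8.72% and 13.3% of their summed FPKM. These intervals do not overlap, but the receptor sum is mostly pdgfra, with 462 of 521 counts in the mutant library. The count ratio of pdgfrb had an interval that overlapped those of all the transcription factors, and twist1b, a transcription factor, had the highest ratio of all. The classes are thus not separated gene by gene.

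The expected counts of all 10 genes were whole in both tables to within 0.005, against 74.3% of sibling and 73.8% of mutant values over all listed genes. No division of reads into fractions was thus seen in the totals of the 10 genes. foxf2b, the paralog of foxf2a, had fractional counts of 5.15 and 18.2. The listed gene length was the same in both tables for 7 of the 10 genes, so for these FPKM and counts carry the same comparison. The counting interval lay above 1 for 9 of the 10 genes, beside 36.9% of tested genes.

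The median tested gene was itself higher in the mutant library, by 0.25 on the log2 scale. Relative to that median, 4 of the 10 genes remained at least 2-fold higher, beside 3.60% of tested genes: pdgfra at 1.65, twist1b at 1.66, twist1a at 1.25 and foxc1b at 1.203. pdgfrb and foxf2a were then just under the limit, at log2 folds of 0.999 and 0.98, and foxc1a and the prrx1 genes were at 0.78, 0.82 and 0.76. Under TMM (trimmed mean of M values) 6 of the 10 were past 2-fold, beside 4.1% of tested genes. The number was also 6 under median-of-ratios scaling, beside 4.01%, and without the 10 highest genes, beside 6.12%. It was 9 by counts, beside 12.7%, in TPM, which rescales FPKM to a fixed total per library, beside 9.86%, and with a pseudocount of 0.1, beside 13%. None of the 9 genes turned its direction under the scales tried, and tbx18 stayed below 0 under each of them. All these scales rest on the same counts of the same libraries, so this is no check of a direction. For tbx18 the counting interval holds 1.

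**Figure D3:**
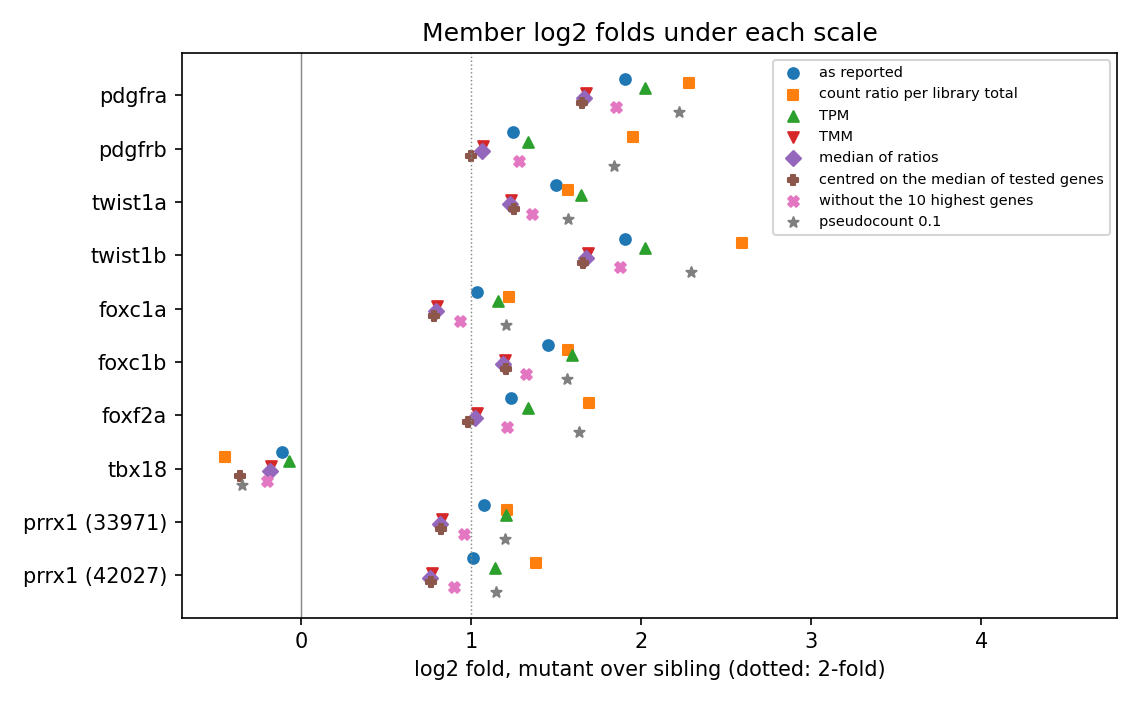
Log2 fold of each of the 10 genes, mutant over sibling, under the reported scale and 7 others; the dotted line marks 2-fold. pdgfra, twist1a, twist1b and foxc1b lie beyond 2-fold under every scale plotted, the other 5 higher genes lie on either side of it, and tbx18 lies below 0.

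The PDGF ligands were mixed. Of 5 ligand genes found, 2 were at least 2-fold higher, beside 7.22% of tested genes, and none lower. Their median log2 fold was 0.42. pdgfbb, a PDGF-B gene, was at 0.96 FPKM from 20 counts and 5.10 FPKM from 91 counts, a log2 fold of 1.64 and a count ratio of 4.17 (2.55 to 7.15). It reached the minimum through the mutant library. The other PDGF-B gene, pdgfba, was at 5.57 and 12.3 FPKM, a log2 fold of 1.02, but its count ratio was 1.57 (1.29 to 1.92), since its listed length was shorter in the mutant table. For pdgfa, pdgfc and pdgfd the intervals held 1. The gene named pdgfa was at 7.22 and 5.40 FPKM (count ratio 0.76, 0.53 to 1.09) and pdgfc at 2.52 and 3.72 FPKM (1.47, 0.90 to 2.45). pdgfd, whose product binds the beta receptor, was at 1.50 and 2.05 FPKM (1.34, 0.67 to 2.79).

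Genes that act below PDGF and other tyrosine kinase receptors had smaller folds. Of 22 adaptor, kinase and target genes with a mean FPKM of at least 1, 2 were at least 2-fold higher and none lower. That is 9.09% higher, near the 7.22% of all tested genes. The median log2 fold was 0.51. spry2, a feedback inhibitor of receptor tyrosine kinases, was at 6.16 and 14.3 FPKM (count ratio 2.30, 1.78 to 3.01). A gene for the adaptor Nck2 (ENSDARG00000018206) had a log2 fold of 1.28 but a count ratio of 1.49, since its listed length was shorter in the mutant table. The adaptor crkl and a gene named socs3 (ENSDARG00000026611) followed at log2 folds of 0.67 each. The immediate early gene egr1 was at 20.1 and 18.4 FPKM.

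No relative of the receptors was past 2-fold on FPKM + 1. By counts 2 of the 3 with a mean FPKM of at least 1 were, beside 12.7% of tested genes. csf1rb, a receptor of the same class, was at 6.14 and 13.0 FPKM, a log2 fold of 0.97 and a count ratio of 2.06 (1.77 to 2.41). kit was at 1.78 and 1.92 FPKM, and kitb at 1.13 and 2.22 FPKM, a count ratio of 2.36 from 7.07 and 18.4 counts (0.94 to 6.68). pdgfrl, csf1ra and flt3 had a mean under 1 FPKM. flt3 had 4 counts in the sibling library and was not listed in the mutant library, csf1ra had 19.7 and 13.3 counts, and pdgfrl had 5 and 9.

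Relatives of the transcription factors were divided. Of 16 found, 9 had a mean FPKM of at least 1, and 3 of these were at least 2-fold higher and none lower, with a median log2 fold of 0.40. The higher ones were hand2, a factor of heart, fin and pharyngeal mesenchyme, at 2.01 and 9.06 FPKM (count ratio 4.49, 2.72 to 7.79), twist2 at 0.29 and 2.23 FPKM, from 2 and 17 counts, and foxf1, a factor of visceral mesoderm, at 0.76 and 2.79 FPKM, from 6 and 24 counts. Both twist2 and foxf1 were under 1 FPKM in the sibling library and reached the minimum through the mutant library. The share of all tested genes at least 2-fold higher was 7.22%. twist2 thus lay on the same side as both twist1 genes, while twist3 had 6 counts in each library. foxd1 and foxd2 were at log2 folds of 0.84 and 0.40. shox and shox2 were at -0.16 and -0.15, next to the foxq1 genes at -0.58 and -0.50. foxl1 was not listed in the sibling library and had 21 counts in the mutant library. The T-box relatives tbx15, tbx20 and tbx22 and the bHLH factor gene tcf21 had a mean under 1 FPKM, as did tbx18, with 11, 13, 0 and 2 counts in the sibling library and 11, 7, 1.31 and 2 in the mutant library.

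Other transcription factors of mesenchyme had smaller folds than most of the 10 genes. The median log2 fold was 0.57 over the 30 with a mean FPKM of at least 1. Of these, 1 was at least 2-fold higher, beside 7.22% of tested genes, and none lower. That gene was etv5b, an ETS factor that responds to FGF, at 13.0 and 27.5 FPKM (count ratio 2.11, 1.80 to 2.49). barx1 and zeb1 followed at log2 folds of 0.94 and 0.93. The counting interval lay above 1 for 17 of the 30 and below 1 for 2, beside 36.9% of tested genes above. By counts without the added FPKM of 1, 9 of the 30 were at least 2-fold higher, beside 12.7% of tested genes. Among the 9, osr1, osr2 and a gene named lmx1b (ENSDARG00000104815) were at 0.50, 0.66 and 0.79 FPKM in the sibling library. They reached the minimum through the mutant library, as did gli3, snai1b and msx3 of the 30. osr1, gli3 and this lmx1b gene are also among those with an interval above 1.

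Markers of mural cells beside the 10 genes were mixed. Of 25 genes found, 12 had a mean FPKM of at least 1, and 4 of these were at least 2-fold higher and none lower, with a median log2 fold of 0.59. They were mcam at 2.29 and 9.27 FPKM, the pericyte gene rgs5b at 2.05 and 6.29, cspg4, which encodes the proteoglycan NG2, at 0.51 and 2.49, and itga8 at 0.51 and 2.12. mcam is also an endothelial gene. cspg4 and itga8 were under 1 FPKM in the sibling library and reached the minimum through the mutant library. Over all tested genes 7.22% were at least 2-fold higher. By counts 6 of the 12 were at least 2-fold higher, beside 12.7% of tested genes. The 6 include cspg4, itga8 and a tagln gene (ENSDARG00000045408) with a count ratio of 2.06 (0.58 to 9.17). This tagln gene was at 0.92 FPKM in the sibling library and also reached the minimum through the mutant library. The counting interval lay above 1 for 9 of the 12 and below 1 for 1, beside 36.9% of tested genes above. notch3, a receptor of mural cells, was at 14.5 and 23.9 FPKM (count ratio 1.64, 1.49 to 1.80). Some of the fixed mural markers had a mean under 1 FPKM. Of these, acta2 was not listed in the sibling library and had 2 counts in the mutant library, and kcnj8 had 2 and 3. The gene rgs5a, listed as rgs5, had 3 and 1.13 counts, and abcc9 had 22 and 25. In the same set, cspg4 had a count ratio of 4.89 (3.05 to 8.21), pdgfrb 3.86 and foxf2a 3.23, while tbx18 had a mean under 1 FPKM. Smooth muscle markers of the list ran from near 0 to abundant. A tagln gene (ENSDARG00000033466) was at 83.6 and 102.3 FPKM (count ratio 1.15, 1.04 to 1.28), and a myh11 gene (ENSDARG00000009782) at 2.77 and 4.42 FPKM, with a count ratio of 2.68 (2.03 to 3.59) and a listed length 68.1% longer in the mutant table. The other tagln gene had 4 and 9 counts and the other myh11 gene 2 and 9. The cnn1 genes were not listed in the sibling library and had 3 and 5 counts in the mutant library. A mylk gene (ENSDARG00000034801) had 23 and 48 counts. In all, 5 of the 25 genes were not listed in the sibling library, and none was missing from the mutant library. These genes had only 1 to 5 counts in the mutant library, so their absence from the sibling library is not read. Of all 21699 genes, 20420 were listed in the sibling library and 20511 in the mutant library. ndufa4l2 stood lower, at 11.6 and 5.86 FPKM, and 1 gene of the list was at least 2-fold lower under TMM, median-of-ratios scaling, centring and without the 10 highest genes.

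Fibroblast matrix genes, by contrast, had a median log2 fold close to that of all tested genes, and only some of them were abundant. Of 23 with a mean FPKM of at least 1, 2 were at least 2-fold higher, beside 7.22% of tested genes, and none lower. Their median log2 fold was 0.27. It depended on the matching of names: with symbols matched only as written it was 0.54 over 16 genes. On that matching it was 0.86 for 6 mural markers and 0.57 for 22 mesenchyme transcription factors. By counts 6 of the 23 were at least 2-fold higher, beside 12.7% of tested genes. Summed over the list the count ratio was 1.13 (1.097 to 1.16), beside 3.28 (2.94 to 3.66) for the 10 genes. The most abundant genes weigh most in such a sum. The fibrillar collagen genes col1a1a and col1a2 were at 95.1 and 104 FPKM and at 49.0 and 59.1 FPKM. The small proteoglycan genes dcn and lum were at 7.45 and 6.86 FPKM and at 3.84 and 3.18 FPKM, and an abundant gene named postn (ENSDARG00000104267) was at 54.3 and 51.2 FPKM. col6a1 and thbs2b were the 2 higher genes, with log2 folds of 1.18 and 1.03 and count ratios of 2.50 (1.77 to 3.57) and 2.63 (1.62 to 4.43). thbs2b was at 0.89 FPKM in the sibling library and reached the minimum through the mutant library. col6a3 and mfap2 followed at log2 folds of 0.99 and 0.97, and col5a1 was at 4.78 and 9.27 FPKM. The count ratio of col6a3 was only 1.48 (0.85 to 2.60), since its listed length was shorter in the mutant table, while that of mfap2 was 2.06. col6a3 was at 0.42 FPKM in the sibling library and reached the minimum through the mutant library. pdgfra, the fibroblast receptor, and col1a1a thus had different ratios, with intervals of 3.87 to 6.20 for pdgfra and 0.95 to 1.06 for col1a1a. The collagen genes were not alike. Among those with a mean FPKM of at least 1, count ratios ran from 0.91 for a gene named col11a1 to 2.50 for col6a1. Of the 23 matrix genes, 12 had a counting interval above 1 and 1 below, beside 36.9% of tested genes above.

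**Figure D4:**
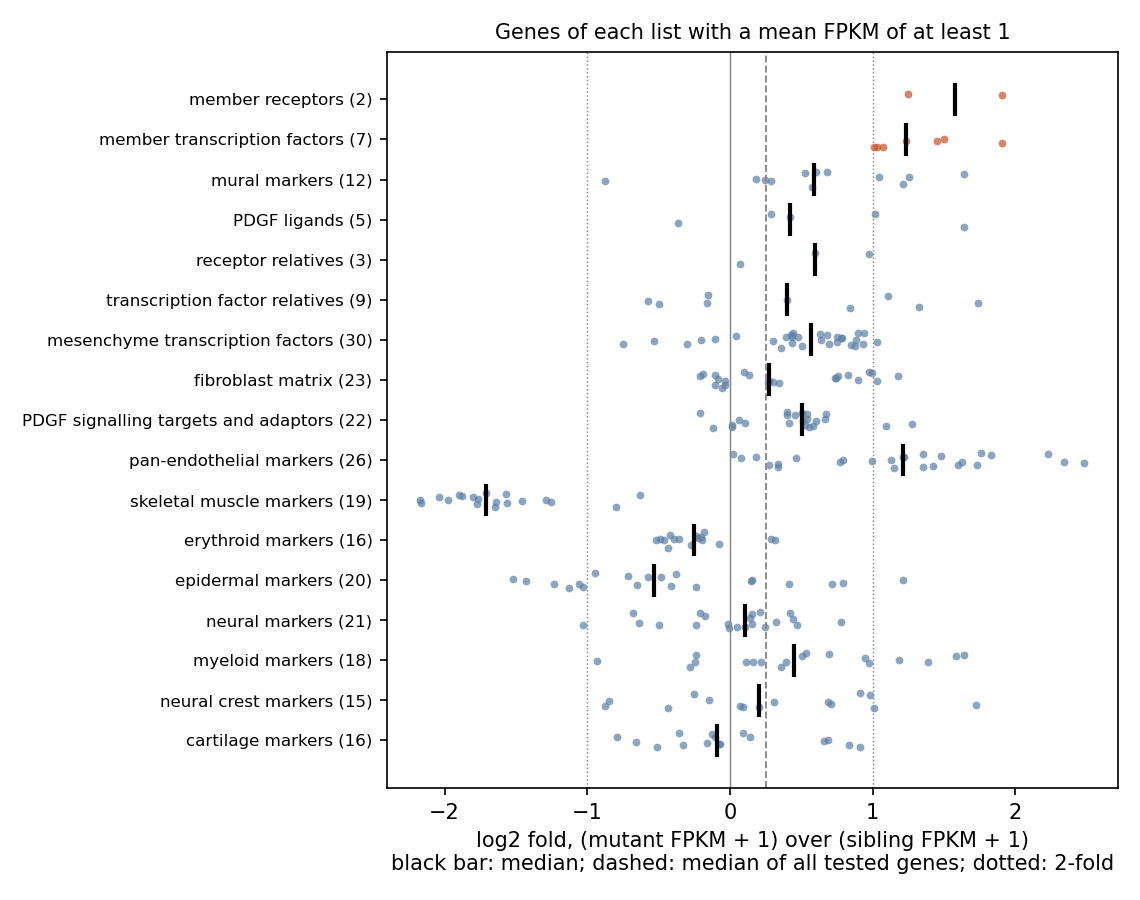
Log2 fold on FPKM + 1 of the genes with a mean FPKM of at least 1 in each list (number in brackets), with the list median as a black bar and the median of all tested genes as a dashed line. The median of the transcription factors of the 10 genes, 1.23, lies near that of the pan-endothelial markers, 1.21. The median of the receptors is higher, at 1.58, and that of the fibroblast matrix genes lies near the dashed line at 0.25.

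Pan-endothelial markers had a median fold close to that of the 10 genes. Of 26 with a mean FPKM of at least 1, 16 were at least 2-fold higher, beside 7.22% of tested genes, and none lower. The median log2 fold was 1.21, and the summed count ratio was 2.37 (2.26 to 2.48). The count ratio of kdrl was 3.33 (2.86 to 3.89), and its interval overlapped those of all 10 genes, that of pdgfra, from 3.87, only at its edge. The count ratio of cdh5 was 4.57 (3.58 to 5.91). Its interval lay above those of foxc1a (up to 3.39), the prrx1 gene ENSDARG00000033971 (up to 3.23) and tbx18 (up to 3.41). Per length and relative to kdrl within each library, pdgfra was at 0.40 in the sibling library and 0.58 in the mutant, twist1b at 0.32 and 0.49, and pdgfrb at 0.14 and 0.17. By value the other genes were lower relative to kdrl in the mutant library, foxf2a only from 0.237 to 0.230. Relative to cdh5 the order of pdgfrb turned by value, from 0.47 in the sibling library to 0.39 in the mutant. Against cdh5, pdgfra was at 1.31 and 1.36 and twist1b at 1.05 and 1.16. The count ratio intervals of these genes overlapped that of cdh5, so the counts do not settle the order. Against kdrl, foxc1a was at 0.55 and 0.38, twist1a at 1.92 and 1.71, and foxc1b at 1.12 and 1.001. The share of endothelial cells in each sort, and its part in the differences of the 10 genes, was not tested.

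Markers of other lineages that a sort could carry were measured beside these. Neural crest markers had 15 genes with a mean FPKM of at least 1, of which 2 were at least 2-fold higher and none lower, with a median log2 fold of 0.20. These were foxd3, not listed in the sibling library and at 2.31 FPKM in the mutant library, and dlx6 at 0.43 and 1.88 FPKM, from 4 and 13 counts. Both reached the minimum through the mutant library, and 7.22% of all tested genes were at least 2-fold higher. By counts, where foxd3 has no ratio, 2 of the 15 were at least 2-fold lower and 3 higher, beside 12.7% of tested genes higher. With a pseudocount of 0.1 the numbers were also 2 and 3, and in TPM none was lower and 4 were higher. Under TMM, median-of-ratios scaling and centring 2 were lower and 1 higher, and without the 10 highest genes 2 and 2. The median was -0.06, -0.07 and -0.05 under TMM, median-of-ratios scaling and centring. Cartilage markers had a median of -0.09 with none of 16 past 2-fold in either direction, and neural markers 0.10 with 1 of 21 lower. Myeloid markers had a median of 0.45 with 4 of 18 higher. Epidermal markers had a median of -0.53 with 6 of 20 lower and 1 higher. Erythroid markers were at -0.25 with none of 16 past 2-fold, and skeletal muscle markers at -1.71 with 17 of 19 lower. Over all tested genes, 1.29% were at least 2-fold lower. The summed level of the muscle markers was 1173 FPKM in the sibling library and 336 FPKM in the mutant, while that of the 10 genes was 39.9 and 119 FPKM. The neural median turned below 0 under TMM, median-of-ratios scaling, centring and without the 10 highest genes, and the cartilage median turned above 0 in TPM and with no filter. The part of these lineages in the differences of the 10 genes was not tested.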

How the data were processed

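RNA sequencing of 2 libraries was used, 1 per group. Per the submitters' processing notes, bcl2fastq 2.16, Bowtie2, BWA and RSEM were used with build GRCz10, with no role stated. The authors deposited expected counts (estimated counts per Ensembl gene, not normalized), in which reads that match several genes can be divided. The authors' FPKM values are scaled by effective length and by assigned fragments within each library. The deposited gene length is a mean over isoforms and can differ between tables. Genes listed in 1 table were set to 0 in the other.

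The members and lists were chosen with earlier results of these data known. Names came from an Ensembl name table, which named 19802 of 21699 genes. Of the 10 members, 7 matched as written and 3 by the human-style symbol. Of 314 entries in 15 further lists, 287 were found. The log2 fold is log2((mutant FPKM + 1)/(sibling FPKM + 1)), and a gene was called at a log2 fold of 1 or -1 among genes with a mean FPKM of at least 1. Count ratios per library total carry exact conditional binomial 95% intervals from rounded counts (scipy 1.17.1), and FPKM intervals are exact Poisson. They cover counting error only, not variation between embryos or sorts. PCR copies are not independent molecules, so the intervals can be too narrow even for counting error. TMM factors came from edgeR 4.0.16. No test was possible with 1 library per group. The calculations were tested on simulated data. The genes named are the 10 members, kdrl, cdh5, gbf1, all PDGF ligands and close relatives, and up to 4 genes of each list with the largest log2 fold, with fixed cell type markers; other list genes, among them egr1, were chosen after their values were seen, and for the lists of other lineages mostly counts are given. Some list genes that the rule would name are counted with their lists but not reported here by name.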

Additional observations from a re-analysis of the deposited data

How the results depend on the processing

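With 1 library per group no replicate could be left out. No paired analysis was possible because each group holds 1 library. Of the 10 genes, 9 were at least 2-fold higher by FPKM + 1, by counts, in TPM, with a pseudocount of 0.1 and with no filter on low values. The number was 6 under TMM, under median-of-ratios scaling and without the 10 highest genes, and 4 once centred on the median of tested genes. With symbols matched only as written it was 6 of the 6 that passed the minimum. With at least 5 FPKM and 20 counts in 1 library it was 7 of 7, of which 5 qualified through the mutant library alone, so this is no check of the call. None was at least 2-fold lower under any of these settings. The median log2 fold of the receptors, 1.58, was 2.12 by counts, 2.03 with a pseudocount of 0.1 and 1.90 with the stricter filter, which leaves pdgfra alone. That of the transcription factors, 1.23, was 1.57 by counts, 1.56 with a pseudocount of 0.1, 1.48 with symbols as written (4 genes), 1.03 under TMM and under median-of-ratios scaling, and 0.98 once centred. The added FPKM of 1 lowers the folds of low genes by construction. The centred share of calls that were higher over all tested genes was 57.0%, against 84.8% as reported, with 62.7% under TMM, 61.5% under median-of-ratios scaling and 71.9% without the 10 highest genes. Over all tested genes 1073 were higher and 192 lower as reported, 535 and 404 once centred, 609 and 363 under TMM, 595 and 372 under median-of-ratios scaling, 1464 and 156 in TPM (90.4% of calls higher), 909 and 356 without the 10 highest genes, 1891 and 380 by counts, and 1934 and 399 with a pseudocount of 0.1. The counts of list genes past 2-fold changed with the scale too: of the mesenchyme transcription factors between 0 and 9 were higher, and of the fibroblast matrix genes between 0 and 6. Depth limits tbx18, with 5 and 4 counts, most, followed by twist1b with 12 and pdgfrb with 14 counts in the sibling library.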

Other observations

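Among the mesenchyme transcription factor genes, some were picked after their values were seen. alx1, a homeobox gene of the frontonasal neural crest, was not listed in the sibling library and had 8 counts in the mutant library. The 2 pax1 genes stood on the other side by value, at 5.86 and 3.08 FPKM and at 7.30 and 6.71 FPKM, sibling first. These values rest on 1 library each, and no explanation was tested.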
